A study of Homo sapiens with 3 samples.

Results

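Molecular chaperones are described here in LvM3b cells, a human colon adenocarcinoma line, that overexpressed miR-483-5p or miR-551a. The members are the genes listed on the array under the names of the HSPA and HSPB heat shock proteins, the HSP90 proteins, HSPH1, the J-domain proteins DNAJA, DNAJB and DNAJC, the BAG co-chaperones BAG1 to BAG5, the mitochondrial pair HSPD1 and HSPE1, and the cytosolic chaperonin (TCP1 and the CCT genes). They were chosen by name, 84 genes with 133 probes among 25200 genes with a symbol. Total RNA came from 3 cultures and was hybridised to Illumina bead arrays, 1 array each for miR-483-5p overexpression (the sample label writes miR-483), miR-551a overexpression and control LvM3b cells. All cultures were grown in DMEM with serum, glutamine, pyruvate and antimicrobials, and RNA was taken before the dishes were full. How the overexpression was made, and whether each culture was 1 clone, is not given in the sources used here. With 1 array per group there are no replicates, no test between groups and no error on any difference; each value compares single cultures.

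Chaperones help other proteins fold. HSP70 proteins hold exposed stretches of a client in cycles driven by ATP, J-domain proteins bring clients and start the cycle, and HSP110 and BAG proteins release the nucleotide. HSP90 acts later on kinases and receptors, and the ring-shaped chaperonin TRiC folds actin and tubulin. The cytosolic genes include many targets of the heat shock factor HSF1, whereas those of the endoplasmic reticulum (ER), led by HSPA5 and HSP90B1, belong to the unfolded protein response.

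The 2 regulatory elements of these responses are shown because the cytosolic and ER members are contrasted below. Promoters were taken from RefSeq on GRCh38.p14, 250 bases before to 50 after each annotated start, and a promoter sequence was at hand for 74 of the 84 members. The heat shock element was searched on both strands in a short form, GAANNTTC or TTCNNGAA. A long form has the same spacing with 1 more inverted unit, so every long match holds short ones. The ER stress element is CCAAT, any 9 bases and CCACG. Capitals below mark the match, and each window lies before the annotated start of its gene. HSPA1B and HSPA1A hold the short form at chr6:31827621-31827652 and chr6:31815425-31815456 (plus strand), and DNAJB6 the long form at chr7:157336861-157336897 (plus). HSPA5 holds the ER element at chr9:125241379-125241421 (minus) and HSP90B1 at chr12:103930204-103930246 and, reversed, chr12:103930309-103930351 (plus).
HSPA1B: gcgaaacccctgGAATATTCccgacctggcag
HSPA1A: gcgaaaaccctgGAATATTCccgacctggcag
DNAJB6: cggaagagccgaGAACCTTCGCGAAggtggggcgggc
HSPA5: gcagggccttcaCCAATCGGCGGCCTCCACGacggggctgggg
HSP90B1, far copy: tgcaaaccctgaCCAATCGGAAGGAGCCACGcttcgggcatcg
HSP90B1, near copy: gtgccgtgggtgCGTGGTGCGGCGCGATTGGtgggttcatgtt

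The mature miR-551a in RefSeq, from chr1:3560710-3560730 (minus, GRCh38.p14), is shown with its seed, bases 2 to 8, in capitals, as 1 of the 2 overexpressed microRNAs.
hsa-miR-551a: gCGACCCAcucuugguuucca

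Across the arrays, 13291 probes were detected with miR-483-5p, 13925 with miR-551a and 13814 in control, and the median intensity was 88.0, 87.7 and 84.9. Of 11 colon epithelial markers on the array 10 were detected in all 3 arrays, while KRT20 was detected in none. Of 6 fibroblast, 6 leukocyte, 5 endothelial and 6 hepatocyte markers, those detected in all arrays numbered 0, 1 (CD68), 0 and 1 (SERPINA1). PTPRC, PECAM1, COL1A1 and ALB were not detected in any array. The fibroblast markers COL3A1 and LUM each had 1 probe detected in some arrays but not in all. The brightest LUM probe read 141.1 with miR-483-5p and 199.6 with miR-551a, against 99.5 in control. For COL3A1 the values were 118.4 and 99.5, against 127.3. Of the 10 measured epithelial markers 2 lay at least 0.32 (log2) above control and 3 below with miR-483-5p, and 3 above and 4 below with miR-551a. Those shares were 20% and 30%, and 30% and 40%. Over all measured genes 12.4% lay above and 11.3% below with miR-483-5p, and 15.0% and 15.5% with miR-551a. The part of these markers in the chaperone differences was not tested.

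A gene counted as measured when at least 1 of its probes had a detection score above 0.99 in all 3 arrays, which held for 56 of the 84 members, and its value is the mean over such probes. A further 3 members were detected in only some arrays and 25 in none. The 48 probes detected in none had intensities of 69.5 to 105.1 with miR-483-5p, 66.7 to 110.8 with miR-551a and 61.3 to 105.2 in control. Intensities below are as deposited, before background correction, and differences are log2 differences after background correction and quantile normalization. Genes are counted as higher or lower where that difference is at least 0.32 in size, a threshold that serves for description only. Both comparisons with control use the same control array, so they are not separate observations.

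In the miR-483-5p array most measured chaperones lay above control, 40 of 56, where 4950 of all 9825 measured genes did. Of 56 measured members 16 (28.6%) were higher than in control by that threshold and 3 (5.36%) lower, where the background over 9825 measured genes was 12.4% higher and 11.3% lower. The median difference was 0.14 for the members and 0.00 for all genes. At 1.5-fold only HSPA1B was higher and DNAJC22 lower, a share of 1.79% each against a background of 2.64% and 2.48%, so the shift consisted of small differences. In the miR-551a array 19 members (33.9%) were higher and 2 (3.57%) lower, against 15.0% and 15.5% of all genes, with a median of 0.21 against -0.01. At 1.5-fold HSPA1B, HSPH1, DNAJB1 and HSPA4L (7.14%) were higher and no member lower, against 4.49% and 4.16%.

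The counts were also taken over the brighter genes alone. Of 37 members brighter than the median gene, 14 (37.8%) were higher with miR-483-5p and 0 lower, where 11.0% and 9.63% of 4913 genes of that brightness passed. With miR-551a 17 (45.9%) were higher and 0 lower, against 14.3% and 13.4%.

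**Figure D1:**
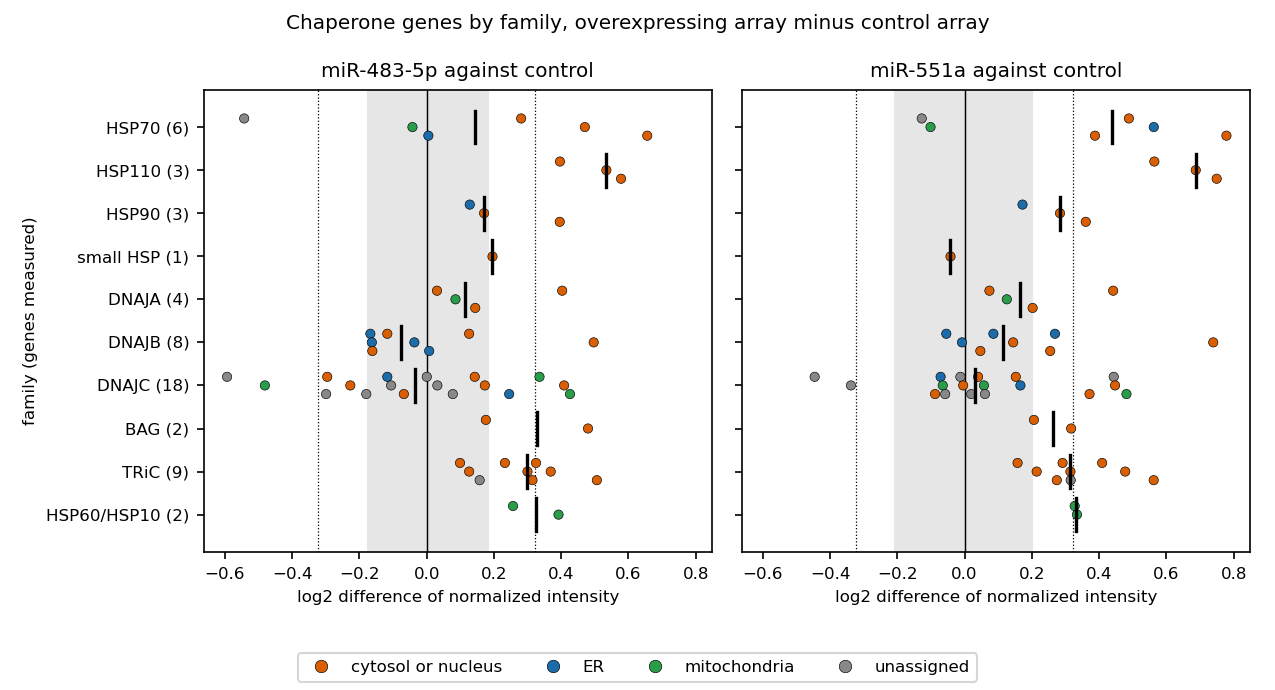
Log2 difference from control (horizontal) of the 56 measured chaperone genes, 1 point per gene, by family (vertical), with miR-483-5p on the left and miR-551a on the right. Colour gives the compartment, black bars the family median, grey the middle range (quartiles) of all 9825 measured genes, and dotted lines the threshold of 0.32. HSP110 and TRiC genes lie right of 0 throughout, while DNAJC genes lie on both sides.

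Of 6 measured HSP70 genes, 2 (33.3%) were higher and 1 (16.7%) lower with miR-483-5p, where 12.4% and 11.3% of all genes were. With miR-551a 4 (66.7%) were higher, the ER gene HSPA5 among them, against 15.0% of all genes. HSPA1B, the stress-inducible cytosolic HSP70, had an intensity of 5053 with miR-483-5p and 5675 with miR-551a, against 3108 in control. It had the largest upward difference of the measured members in both comparisons with control, 1.58-fold (0.66) and 1.72-fold (0.78) higher. Its near-identical neighbour HSPA1A, 9795 bases away on chromosome 6, was detected in none of the arrays at its 1 probe, and the tables do not say which part of either transcript the probes read. Over 299 aligned bases the promoters of the pair were 92.6% identical.

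The constitutive HSPA8, which also strips clathrin from vesicles, was measured by 2 probes. At the first, intensity was 15373 with miR-483-5p and 16664 with miR-551a, against 10795 in control, and at the second 16131 and 16691, against 12326. The mean was 1.39-fold (0.47) and 1.40-fold (0.49) higher, with 0.55 and 0.59 at the first probe and 0.39 and 0.38 at the second. HSPA14, which sits on ribosomes, differed by 0.28 and 0.39. HSPA9, the mitochondrial HSP70, was near control at -0.04 and -0.10, with intensities of 1944 and 1953, against 1888.

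HSPA5, the ER HSP70 known as BiP, was near control in 1 overexpressing array and above it in the other. Its intensity was 337.0 with miR-483-5p and 486.2 with miR-551a, against 330.6 in control. The difference was 0.01 with miR-483-5p and 0.56, or 1.48-fold, with miR-551a. HSPA12A, a distant relative of HSP70, was 1.46-fold lower with miR-483-5p (-0.54; intensity 165.4, against 208.1) and differed by -0.13 with miR-551a (203.6). Of its 4 probes 1 was measured, and without a detection filter the miR-483-5p difference was -0.10. The probes of HSPA1L, HSPA2, HSPA6 and HSPA12B were detected in no array, HSPA6 being a strictly heat-induced cytosolic form.

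HSP110 proteins, the large relatives of HSP70 that release its nucleotide, were the family with the highest median, 0.53 with miR-483-5p and 0.69 with miR-551a over 3 genes. The miR-483-5p median is HSPA4's own value. Without background correction the family median with miR-483-5p was 0.38, and with an offset of 50 it was 0.42. HSPH1 had an intensity of 1629 with miR-483-5p and 2186 with miR-551a, against 1213 in control, 1.32-fold (0.40) and 1.68-fold (0.75) higher. HSPA4L stood at 620.6 and 697.9, against 423.9, 1.49-fold (0.58) and 1.61-fold (0.69) higher. HSPA4 averaged 0.53 and 0.56, but its 3 probes did not match. The dimmest gave 1.03 and 1.06 (intensity 166.0 and 171.4, against 110.9), and the brightest gave 0.28 and 0.24 (3210 and 3298, against 2544).

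Of 3 measured HSP90 genes, only HSP90AA1 (33.3%) was past the threshold, in both arrays, where 12.4% and 15.0% of all genes were higher. HSP90AA1, the inducible cytosolic form, was on average 1.32-fold (0.40) higher with miR-483-5p and 1.28-fold (0.36) higher with miR-551a. Its brightest probe read 29105 and 28459, against 19881 in control, a difference of 0.60 in each. The equal value comes from the quantile step, in which this probe took the same rank in both overexpressing arrays. A middle probe differed by 0.29 and 0.47, and a dim probe by 0.30 and 0.02. The constitutive HSP90AB1 differed by 0.17 and 0.28, with intensities of 6786 and 7610, against 6013. HSP90B1 of the ER, known as GRP94, differed by 0.13 and 0.17, with 7871 and 8416, against 7046.

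Among small heat shock proteins only HSPB1 was measured, at 3078 with miR-483-5p and 2787 with miR-551a, against 2599 in control. Normalized, it differed by 0.19 and -0.04. The other 6 members of the family on the array, HSPB2, HSPB3, HSPB6, HSPB7, HSPB8 and HSPB9, were detected in no array.

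Of the J-domain proteins, the class of DNAJA had 1 of 4 measured genes higher by the threshold in each array. By comparison, 12.4% of all genes were higher with miR-483-5p and 15.0% with miR-551a. DNAJA1, which works with cytosolic HSP70, had an intensity of 5181 with miR-483-5p and 5478 with miR-551a, against 3711 in control, 1.32-fold (0.40) and 1.36-fold (0.44) higher. DNAJA2, DNAJA4 and the mitochondrial DNAJA3 differed by 0.03 to 0.14 with miR-483-5p and by 0.07 to 0.20 with miR-551a. In the class of DNAJB, too, 1 gene of 8 was past it, 12.5%, close to the 12.4% and 15.0% of all genes that were higher. DNAJB1, the main stress-inducible partner of HSP70, stood at 821.5 and 1012, against 581.5, 1.41-fold (0.50) and 1.67-fold (0.74) higher. The other measured genes of the class lay between -0.17 and 0.13 with miR-483-5p and between -0.05 and 0.27 with miR-551a. At the lower end were DNAJB11 (-0.17) with miR-483-5p and DNAJB14 (-0.05) with miR-551a.

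The class of DNAJC, the most varied, had medians near 0. Its 18 measured genes had medians of -0.03 with miR-483-5p and 0.03 with miR-551a. With miR-483-5p 3 (16.7%) were higher and 2 (11.1%) lower, against 12.4% and 11.3% of all genes. With miR-551a 4 (22.2%) were higher and 2 (11.1%) lower, against 15.0% and 15.5%. Among brighter probes alone, which cover fewer of these genes, the median with miR-483-5p was 0.30, the value of a probe of the ER gene DNAJC10. With miR-551a it was 0.15. DNAJC9, a histone chaperone, read 1900 with miR-483-5p and 2028 with miR-551a, against 1365 in control (0.41 and 0.45). DNAJC15, a mitochondrial inner membrane protein, read 569.1 and 653.8, against 452.9 (0.34 and 0.48). These genes were higher in the overexpressing arrays than in control.

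DNAJC11, of the mitochondrial membranes, differed by 0.43 with miR-483-5p and 0.06 with miR-551a. DNAJC19, a subunit of the mitochondrial import motor, differed by -0.48 and -0.07, with intensities of 266.8 and 344.9, against 341.6 in control. DNAJC2, a J protein of the ribosome, differed by -0.23 and 0.37, and DNAJC27 by -0.18 and 0.44. Without background correction DNAJC11 fell short of the threshold with miR-483-5p (0.29), and DNAJC2 (0.24) and DNAJC27 (0.27) did with miR-551a. With an offset of 50 DNAJC2 fell short as well (0.29). DNAJC22 was 1.51-fold lower (-0.59) and 1.26-fold lower (-0.34), with 263.9 and 313.1, against 358.7. The miR-551a value fell short of the threshold without background correction (-0.27), with an offset of 50 (-0.30), under median scaling (-0.27) and in the authors' normalized table (-0.24). DNAJC13, which acts on endosomes, differed by 0.08 and -0.45, the second -0.30 in the authors' normalized table. Several of these genes differed from control in 1 overexpressing array more than in the other. The 7 measured genes of the class not named elsewhere lay between -0.30 and 0.17 with miR-483-5p and between -0.09 and 0.15 with miR-551a.

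Genes of the chaperonin TRiC lay above control together. All 9 measured genes of the family, 8 subunit genes and the pseudogene CCT6P1, lay above 0 in each array. Of all 9825 measured genes, 4950 did so with miR-483-5p and 4825 with miR-551a. The family medians were 0.30 and 0.31. In each array 3 of 9 (33.3%) were higher by the threshold, against 12.4% and 15.0% of all genes. CCT2 read 4558 with miR-483-5p and 4686 with miR-551a, against 3112 in control, 1.42-fold (0.51) and 1.39-fold (0.48) higher. TCP1, the alpha subunit, read 3426 and 4400, against 2624, at its brightest probe, and averaged 1.23-fold (0.30) and 1.48-fold (0.56) higher. CCT6A averaged 0.13 and 0.41, with probes at -0.11 and 0.36 in the first array and at 0.16 and 0.65 in the second.

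For the remaining subunits the values ran as follows. With miR-483-5p CCT7 and CCT4 were past the threshold, and TCP1 and CCT6A were not. CCT7 averaged 0.37 and 0.21, CCT4 0.33 and 0.31, CCT5 0.31 and 0.29, and CCT8 0.23 and 0.27. CCT3 was lowest at 0.10 and 0.16. CCT6P1, a pseudogene related to CCT6A, differed by 0.16 and 0.32, and with related sequences the signals of the pair may overlap. CCT6B, a testis form, and CCT8L2 were detected in no array.

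HSPD1 and HSPE1 encode the mitochondrial chaperonin and its lid and lie head to head on chromosome 2, 104 bases apart. HSPE1 was higher at both probes, 9861 with miR-483-5p and 9163 with miR-551a, against 7084 in control, at the brighter one, and averaged differences of 0.39 and 0.33. HSPD1 averaged 0.26 and 0.33, but this mean rests on a dim probe at 0.82 and 0.95 (225.0 and 245.1, against 151.6). Its brightest probe differed by 0.04 and 0.16 (21177 and 22769, against 20997), and its remaining measured probe by -0.09 and -0.10.

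BAG3, an HSP70 co-chaperone of selective autophagy and a heat shock target, read 1198 with miR-483-5p and 1136 with miR-551a, against 842.9 in control, a difference of 0.48 and of 0.32, the second just short of the threshold before rounding. BAG5 averaged 0.18 and 0.21, and its 2 probes gave -0.13 and 0.48 with miR-483-5p. Members detected in only some arrays have a bound alone, set against the lowest signal detected on the array that lacked them. BAG4 was at least 1.31-fold lower with miR-483-5p, where it was not detected, and differed by -0.34 with miR-551a. BAG1 and DNAJC3, detected with miR-551a alone, were at least 1.22-fold and at least 1.26-fold higher there than in control. For TCP1 a further probe was detected in the overexpressing arrays alone, at least 1.34-fold above control with miR-483-5p and at least 1.22-fold with miR-551a.

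**Figure D2:**
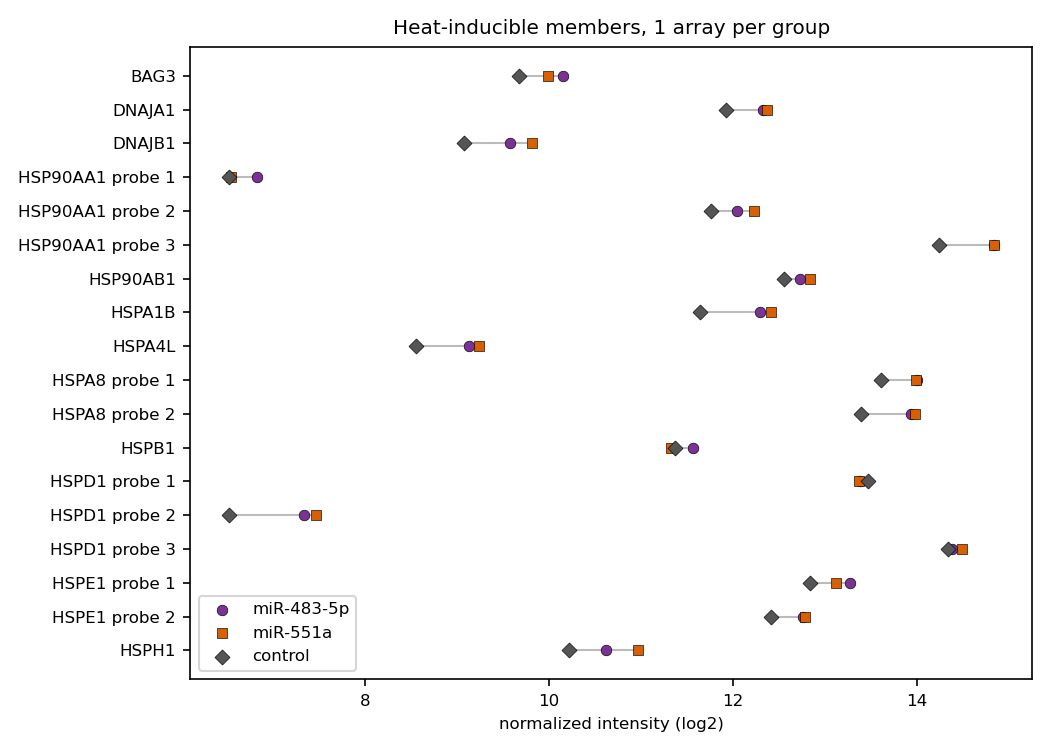
Normalized intensity (log2, horizontal) of each measured probe of the heat-inducible members (vertical) in the miR-483-5p, miR-551a and control arrays, 1 symbol per array. Levels of different probes cannot be compared with each other. The control symbol lies left of the other two for HSPA1B, DNAJB1, HSPH1 and both HSPA8 probes, and near them for 2 of the HSPD1 probes.

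A list of 14 HSF1 targets among the members, here called heat-inducible, 12 of them measured, had a higher median than the other members. The measured ones are HSPA1B, HSPA8, HSPH1, HSPB1, HSP90AA1, HSP90AB1, DNAJA1, DNAJB1, BAG3, HSPD1, HSPE1 and HSPA4L. The list thus also holds HSPA8 and HSP90AB1, named constitutive above, and it was chosen with earlier results of these data known. In it 9 of 12 were higher in each array and 0 lower, where 12.4% of all genes were higher with miR-483-5p and 15.0% with miR-551a, with medians of 0.40 and 0.40 and a range of 0.17 to 0.66 with miR-483-5p and -0.04 to 0.78 with miR-551a. With miR-551a the 9 include HSPD1, whose brightest probe differed by 0.16. HSPA1A and HSPA6 were the listed genes not measured. The 44 measured members outside the list had 7 (15.9%) higher and 3 (6.82%) lower with miR-483-5p and 10 (22.7%) and 2 (4.55%) with miR-551a, with medians of 0.08 and 0.15. The 22 cytosolic members outside the list had medians of 0.16 and 0.23.

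The median of cytosolic and nuclear members lay above that of ER members. Of 32 measured cytosolic genes, 13 (40.6%) were higher with miR-483-5p and 14 (43.8%) with miR-551a, and 0 lower in either, with medians of 0.26 and 0.30. Over all measured genes 12.4% and 15.0% were higher, and 11.3% and 15.5% lower. The 8 measured ER genes had medians of -0.02 and 0.13, with 0 genes past the threshold with miR-483-5p and only HSPA5 with miR-551a, 12.5% of 8 and near the share over all genes. The cytosolic median was above the ER median by 0.27 with miR-483-5p and by 0.18 with miR-551a. The second value was 0.01 without a detection filter, where undetected genes enter both groups, and 0.18 rests on 8 ER genes. Of those 8, 6 are J-domain genes, so the J-domain genes of both compartments were also set side by side, a choice made after seeing the data. The 13 cytosolic ones had medians of 0.13 and 0.15, and the 6 of the ER -0.08 and 0.04, a distance of 0.20 with miR-483-5p and 0.11 with miR-551a. The 6 cytosolic genes of the DNAJC class alone had medians of 0.04 and 0.10, the second below the 0.13 of all ER members.

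The other ER members were HSP90B1 and J-domain proteins, some of which pass clients to HSPA5. DNAJB11 read 2157 with miR-483-5p and 2559 with miR-551a, against 2293 in control, a difference of -0.17 and -0.01. DNAJB9, an established target of the unfolded protein response, read 522.1 and 589.2, against 523.5 (-0.04 and 0.09). DNAJC10, an ER disulfide reductase, differed by 0.25 and 0.17, and DNAJC1 by -0.12 and -0.07. None of these 4 genes was past the threshold.

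The membrane-anchored DNAJB12 and DNAJB14 differed by 0.01 and -0.16 with miR-483-5p and by 0.27 and -0.05 with miR-551a. Each had 4 measured probes, which ran from -0.45 to 0.31 and from -0.25 to 0.57 for DNAJB12, and from -0.41 to 0.11 and from -0.17 to 0.18 for DNAJB14. Their means therefore hide probes on both sides of 0. DNAJB4, a cytosolic J protein, had probes at -0.31 and -0.01 with miR-483-5p and at -0.20 and 0.49 with miR-551a.

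Mitochondrial members were mixed. Of 7 measured, 3 were higher and 1 lower with miR-483-5p (median 0.26), and 3 higher and 0 lower with miR-551a (median 0.13), against 12.4% and 15.0% higher over all genes. The first median is HSPD1's own value, and with the brightest probe per gene it was 0.09. By that probe HSPD1 was not past the threshold with miR-551a. The 9 measured genes with no compartment given, such as the palmitoylated vesicle protein DNAJC5 (0.00 and 0.06), had medians of -0.11 and -0.01.

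**Figure D3:**
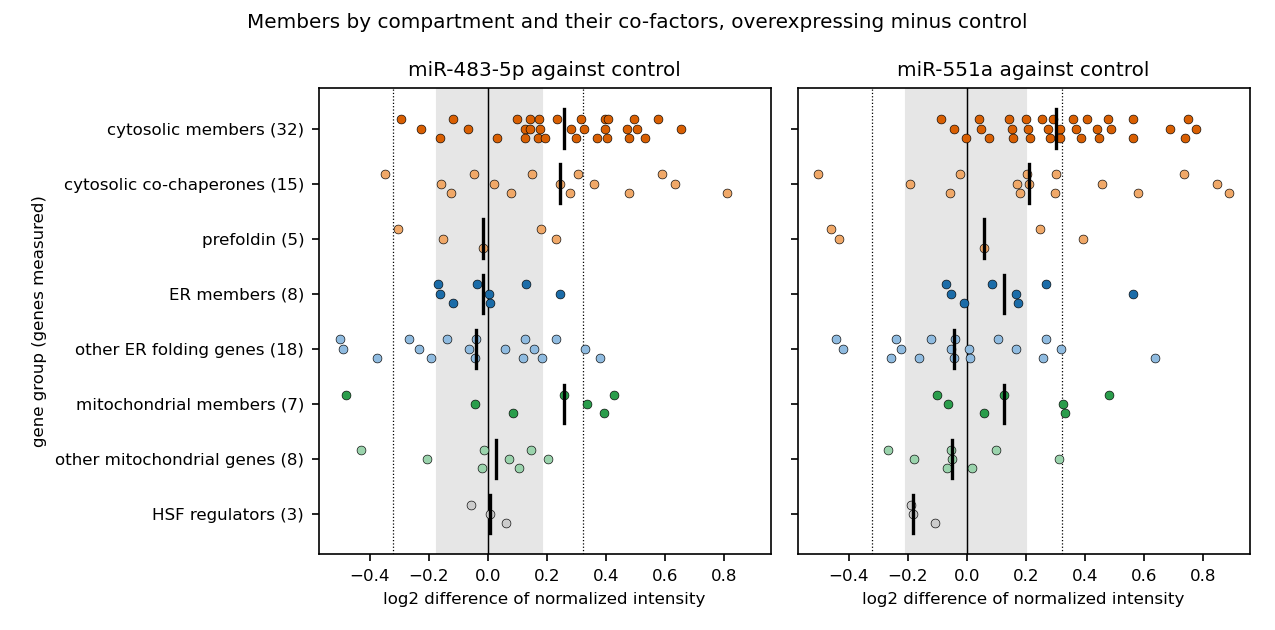
Log2 difference from control (horizontal) for members by compartment and for related genes that are not members (vertical), 1 point per gene, miR-483-5p left and miR-551a right. Black bars are group medians, grey the quartile range of all measured genes, dotted lines the threshold of 0.32. Cytosolic members have medians of 0.26 and 0.30, ER members -0.02 and 0.13.

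Genes that work with the members but fall outside the naming rule were described from lists. Over all measured genes 12.4% were higher and 11.3% lower with miR-483-5p, and 15.0% and 15.5% with miR-551a. Among 15 measured cytosolic co-chaperones each array had 5 (33.3%) higher and 1 (6.67%) lower, with medians of 0.25 and 0.21. The HSP90 partners FKBP4 (0.64 and 0.85), FKBP5 (0.81 and 0.74), AHSA1 (0.59 and 0.58) and STIP1 (0.48 and 0.46) were higher, and ST13, an HSP70 cofactor, was lower (-0.35 and -0.50). Of 18 measured ER folding and quality control genes 2 (11.1%) were higher and 3 (16.7%) lower with miR-483-5p. With miR-551a 1 (5.56%) was higher and 2 (11.1%) lower. These shares were near or below those over all genes, except for the lower genes with miR-483-5p, and the medians were -0.04 and -0.04. Here CALR, an ER lectin chaperone, differed by 0.38 and 0.64, XBP1, a transcription factor of the unfolded protein response, by -0.49 and -0.42, and EDEM1 by -0.37 and -0.44.

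Prefoldin, which hands actin and tubulin to TRiC, had 0 of 5 measured genes past the threshold with miR-483-5p. With miR-551a PFDN4 (-0.46) and PFDN5 (-0.43) were lower and PFDN6 (0.39) higher, and the medians were -0.01 and 0.06. The 8 measured mitochondrial chaperones and proteases outside the rule had medians of 0.03 and -0.05. HSF1 was detected in no array at its 1 probe, with intensities of 110.1 with miR-483-5p, 105.4 with miR-551a and 102.1 in control. HSF2, HSF4 and HSBP1 lay between -0.06 and 0.06 with miR-483-5p and between -0.19 and -0.11 with miR-551a.

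The promoter elements were set beside these differences as a description. The long heat shock element occurred in 7 of 74 member genes, against 166 (0.608%) of 27305 genes with a promoter entry. Of these 7, HSPA6 was not measured, and HSPA8, HSP90AA1, HSP90AB1, DNAJA1, DNAJB6 and HSPD1 had differences from 0.13 to 0.47 with miR-483-5p and from 0.25 to 0.49 with miR-551a. Their medians were 0.33 and 0.35, against 0.14 and 0.17 for 44 measured members with no match. Across all genes, the 33 measured ones with the long form, which include these 6 members, had medians of 0.13 and 0.08. The first median is the value of DNAJB6 itself. All 6141 measured genes with a promoter entry had medians of 0.01 and -0.01.

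The short form occurred in 26 of 74 members, against 16.2% of all genes. The 17 measured members that hold it had medians of 0.33 and 0.36, against 0.09 and 0.15 for 33 without. All 869 measured genes with the short form, members included, had medians of 0.01 and -0.01. The ER element occurred in HSPA5 and HSP90B1 alone among the members, against 25 (0.0916%) of all genes. These are matches of letters near annotated starts, and some lie inside the annotated gene, at a start within it. This holds for HSPA8, HSP90AA1, HSP90AB1 and HSPD1, and for the short form also in CCT2, CCT4, DNAJA4, DNAJB1, DNAJB4, DNAJC6 and HSPA4L. In DNAJA1 the long match, and in HSPB8 a short match, begin after the annotated start and so also lie inside the gene. The short match of HSPA9 runs across the start.

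The overexpressing arrays were also set against each other, without the control. Here 6 of 56 members (10.7%) were higher with miR-551a than with miR-483-5p and 2 (3.57%) lower, where 6.74% and 7.21% of all genes passed, with a median of 0.07 against -0.01. HSPA5 was 1.47-fold higher with miR-551a (0.56; intensity 486.2, against 337.0 with miR-483-5p), and HSPH1 1.28-fold higher (0.35; 2186, against 1629). DNAJC27 (0.62; 176.6, against 134.1), DNAJC2 (0.60; 203.5, against 153.1), DNAJC19 (0.42) and HSPA12A (0.42) were higher too. The lower genes were DNAJC13 (-0.52; 210.7, against 267.8) and DNAJC11 (-0.37).

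All 8 measured DNAJB genes lay above 0 in this comparison, between 0.11 and 0.31, with 0 past the threshold. Of all 9825 measured genes, 4766 lay above 0. Heat-inducible members ran from -0.24 (HSPB1) to 0.35 (HSPH1), with a median of 0.06.

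**Figure D4:**
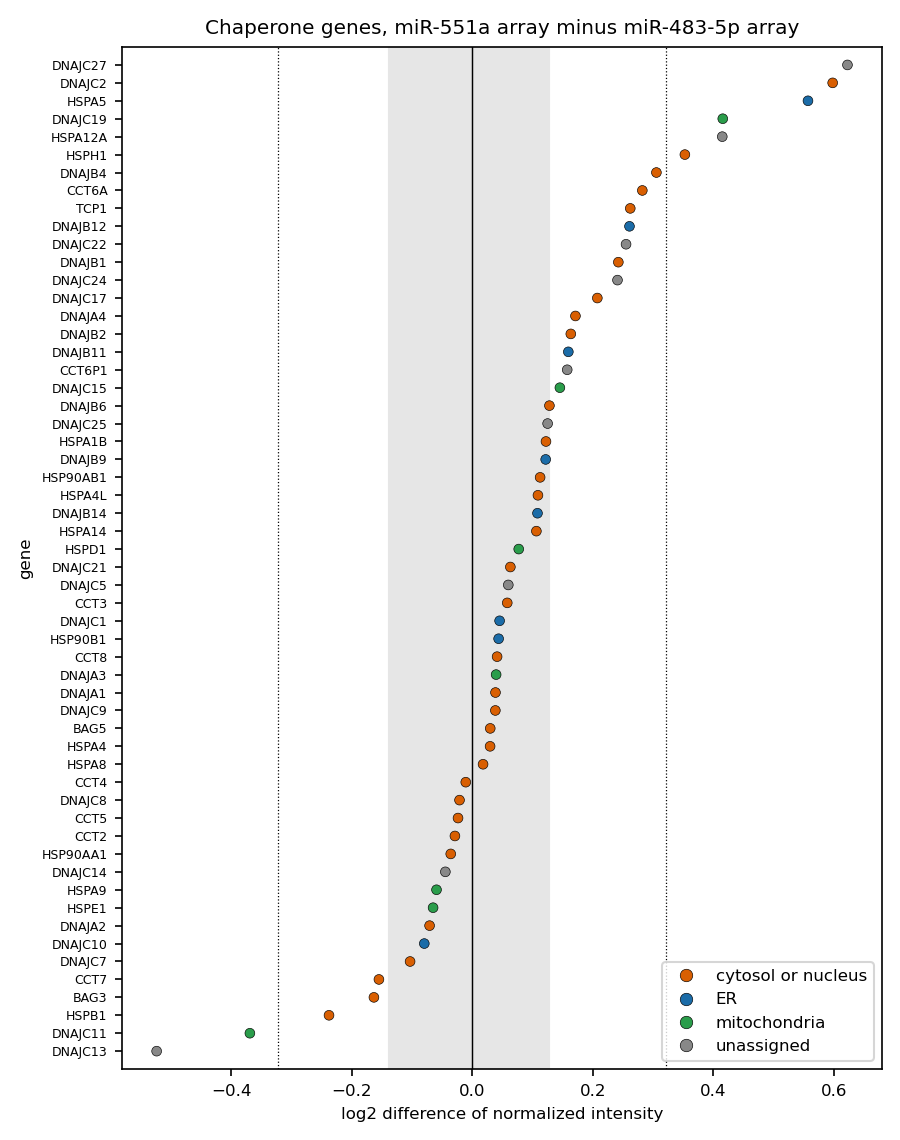
Log2 difference of the miR-551a array from the miR-483-5p array (horizontal) for the 56 measured chaperone genes in order of size (vertical). Grey is the quartile range of all measured genes and dotted lines are the threshold of 0.32. DNAJC27, DNAJC2 and HSPA5 lie highest, DNAJC13 and DNAJC11 lowest.

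Probes of the same gene gave a further view of the spread within single arrays. Of 16 members with several measured probes, 5 had probes more than 0.5 apart with miR-483-5p and 5 with miR-551a, and the median distance was 0.30 and 0.24. These were BAG5, DNAJB12, DNAJB14, HSPA4 and HSPD1 in the first array and DNAJB4, DNAJB12, HSP90AA1, HSPA4 and HSPD1 in the second. The distances are of the size of many differences above.

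**Figure D5:**
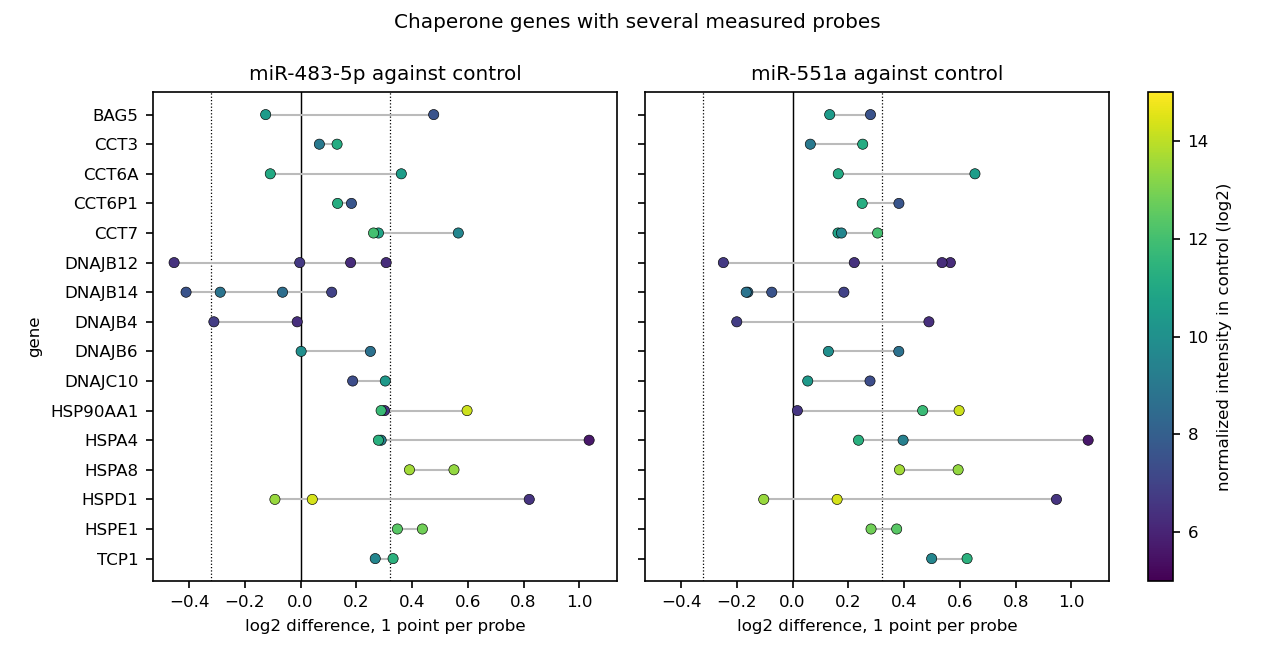
Log2 difference from control (horizontal) of every measured probe of the 16 members with several such probes (vertical), miR-483-5p left and miR-551a right. Colour is the normalized control intensity (log2) and dotted lines are the threshold of 0.32. The dimmest probes of HSPA4 and HSPD1 lie furthest right, at 1.03 and 0.82 with miR-483-5p.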

How the data were processed

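The authors deposited non-normalized intensity values of 48803 probes for each array, with a detection score beside each, a fraction from 0 to 1 per the file headers that is near 1 for bright probes. No source used here names the scanner or its settings. In the authors' normalized intensity table, every value in the column headed miR-483 was 0.934 times the raw miR-551a value of that probe, so only its control and miR-551a columns served, as an alternative.

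Here the 3 arrays went through the neqc function (limma 3.58.1, R 4.3.3). It estimates background using the detection scores, then applies an offset of 16, quantile normalization and log2. The estimated background was 80.6 (SD 10.3, of the fitted background) for miR-483-5p, 79.0 (9.46) for miR-551a and 76.2 (9.10) for control. The settings below include one with no background correction. Targets given only as UniGene clusters (12646 probes) were left out. A gene is the mean of its probes with a score above 0.99 in all arrays.

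Compartments and gene lists were assigned from general knowledge. The members and lists were chosen with earlier results of these data known. Text names members past 0.32 (log2) in either array, the extremes of each family, ER members, genes whose probes lie over 0.5 apart, and members with a bound past 0.32 (log2); others are named as family members. The pipeline was tested on simulated data. The alternatives were no background correction, an offset of 50, median scaling, other detection filters, the brightest probe per gene and the deposited normalized table.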

Additional observations from a re-analysis of the deposited data

How the results depend on the processing

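For the 12 main values, counts past the threshold and medians, 95 of 108 recomputed values stayed within 1.5 times the count or within 0.1 of the median. The counts of higher members ran from 13 to 21 with miR-483-5p and from 15 to 28 with miR-551a. Without background correction, with an offset of 50 and under median scaling 1 member was lower with miR-551a, and 0 were lower with the authors' normalized values. Among brighter probes 0 were lower with miR-483-5p and 0 with miR-551a. Under median scaling the members' median with miR-551a was 0.32, while that of all genes was 0.07. Without a detection filter the cytosolic medians were 0.14 with miR-483-5p and 0.18 with miR-551a, and the cytosolic median exceeded the ER median by 0.014 with miR-551a. Among J-domain genes alone, an alternative chosen after seeing the data, the cytosolic medians were 0.13 with miR-483-5p and 0.15 with miR-551a. With the brightest probe per gene the ER median with miR-551a was 0.023. The small heat shock protein value with miR-483-5p changed sign without a detection filter, to -0.027, where undetected genes enter. The share of higher genes among member calls was 84.2% with miR-483-5p and 90.5% with miR-551a, and 100% in both among brighter probes. Why these values moved was not tested, beyond the fewer or added genes that a filter brings. No paired analysis was possible because each group has 1 array. With 1 array per group the limit is the number of arrays, and for dim probes the signal over background.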
